A study of Linum usitatissimum with 11 samples.

Results

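The 200 transcripts described here are those whose level differed most from plant to plant within the lbf1 mutant of flax, Linum usitatissimum, among 43455 probes on the array. They were chosen by the authors' deposited log2 values, so their spread between lbf1 plants and their small mean difference from wild type (wt) are conditions of the choice and not findings. Of the Lus identifiers, which denote flax gene models, 20497 had a value on all 11 arrays. The lbf1 and wt means lay within 2 log2 units for 19975 of these. Removing the 200 highest in wt left 19775, and 12220 of those had an lbf1 mean of at least 9. The 200 members are the ones with the largest standard deviation (SD) over the 6 lbf1 plants among these 12220, and the remaining 12020 are called the other identifiers below. In the authors' values the SD ran from 2.16 at the top to 0.869 for the last member, and the first identifier left out stood at 0.867, so the boundary is not a gap.

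Flax is grown for its bast fibres, long phloem fibres in the outer stem whose walls are rich in cellulose and poor in lignin, while the inner stem holds xylem with lignified walls. Chemical mutagenesis with EMS leaves many point mutations besides the one a family is kept for, and these can differ between sister plants until a line is fixed. Plants grown in a field also differ in light, water, wounding and pathogen load, and many stress and clock transcripts follow such conditions closely. Whether any of these bears on the plants studied here was not tested.

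Inner stem tissue was peeled from plants of the cultivar Diane grown in the field at the University of Lille and taken at the vegetative stage. The 3 wt plants and the 6 plants of the EMS mutant family lbf1 were each a separate individual per the labels, and the titles of lbf1 plants 5 and 6 read lbf. Total RNA was labelled with Cy3 and hybridised to 11 arrays of 1 colour, with 2 arrays each for wt plant 3 and lbf1 plant 1. The arrays lay on 4 slides: slide 1 held wt plants 1 and 2 with lbf1 plant 1, slide 2 held lbf1 plants 2 to 5, slide 3 held lbf1 plant 6 and slide 4 held wt plant 3. No gene names or functions come with the identifiers in these files, so the members are described by their patterns, the tissue label could not be set against marker genes, and only 4 identifiers are named. Levels below are log2 signals after background correction and quantile normalization, and a difference of 1 is 2-fold.

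Position on the array has to be stated before the patterns, because many members lay at its edge. The spots form 266 columns and 170 rows. In the outermost 3 columns or rows lay 62 members (31.0%), against 2.92% of the other identifiers and 4.94% of all probes. The top 3 rows alone held 47 members, 23.5% against 0.932% of the other identifiers. The 114 members that lay at least 10 spots inside every edge are called interior members. They made up 57.0% of the members, and 86.2% of the other identifiers were interior.

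Control spots at the same edge read low on some arrays. The E1A spike-in probes detect synthetic RNA and no flax transcript, and each is spotted many times over the array. Relative to interior spots of the same probe, the 5 spike-in spots in the top 3 rows had a median of -2.04 on the array of lbf1 plant 6, -1.46 on that of lbf1 plant 2, -1.26 on that of wt plant 1 and -1.47 on the first array of wt plant 3. On the other 7 arrays this median lay between -0.73 and -0.14. The 112 other identifiers in the top 3 rows were low in the same lbf1 plants. Their median level relative to the lbf1 mean was -0.44 in lbf1 plant 2 and -0.33 in lbf1 plant 6, and between 0.18 and 0.25 in lbf1 plants 1, 3, 4 and 5. The part of the array edge in the levels of the edge members was not tested. Values of edge and interior members are given apart for the spreads and for group 1 of the patterns below. The profiles of groups 2 to 4 are described by their interior members.

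**Figure D1:**
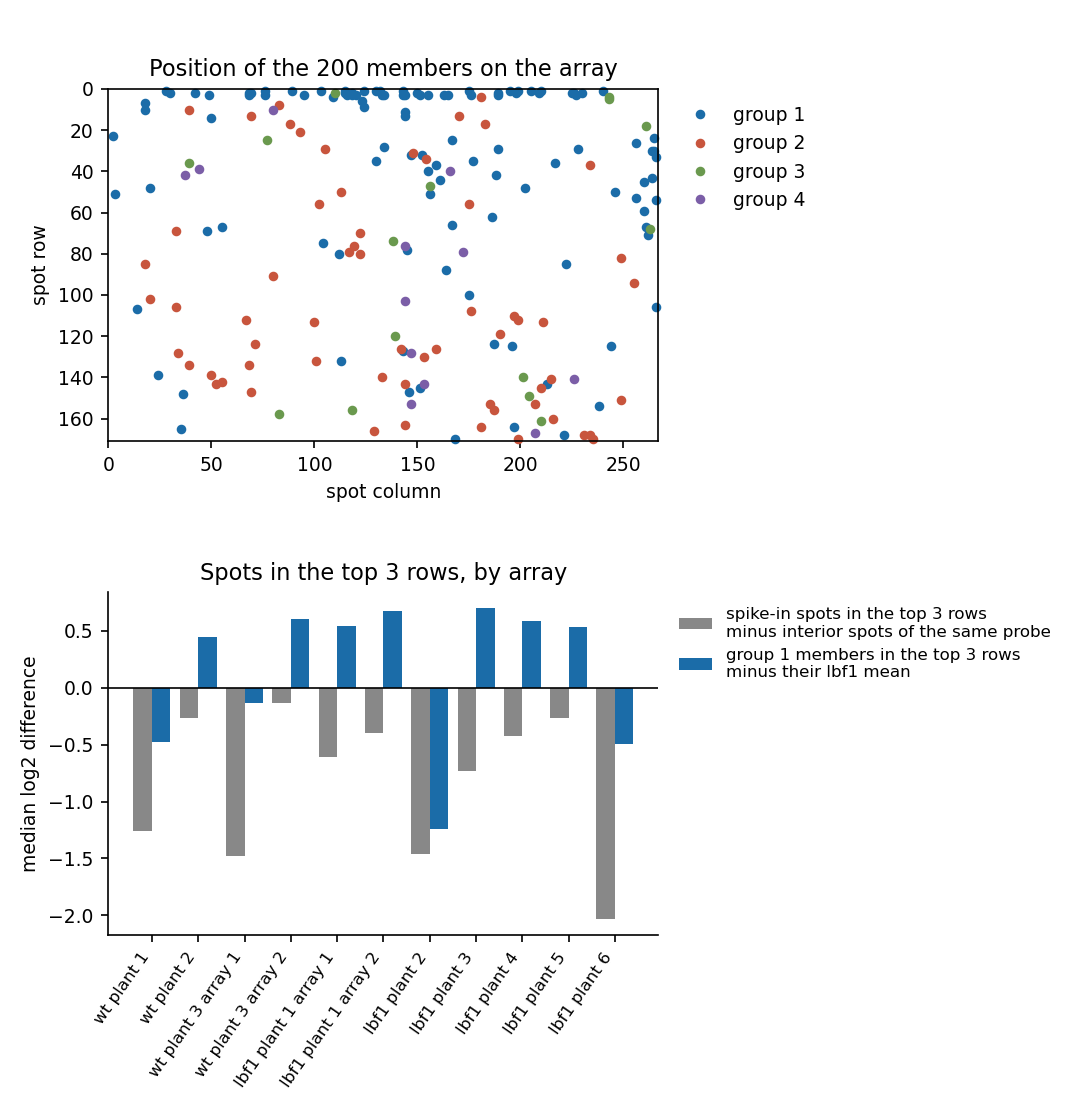
Upper panel, position of the 200 members by spot column and row, coloured by pattern group, with a row of group 1 members along the top edge. Lower panel, for each of the 11 arrays, the median log2 difference of the 5 spike-in spots in the top 3 rows from interior spots of the same probes (grey) and of the 46 group 1 members in the top 3 rows from their lbf1 mean (blue); both are lowest in lbf1 plants 2 and 6 among the lbf1 arrays.

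Among interior members, the lbf1 plants differed widely. The median range from the lowest to the highest lbf1 plant was 2.54 log2 units, or 5.81-fold, and single members ranged from 3.59-fold to 32.3-fold. The other interior identifiers had a median range of 1.45-fold. The median SD over lbf1 plants was 0.996 for interior members and 0.944 for the 62 edge members. Over all 200 members it was 0.970, with 184 spanning more than 4-fold and 39 more than 8-fold. These widths describe the choice and support nothing by themselves.

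The spread over the 3 wt plants was not used in the choice. It was 0.259 (median SD) for interior members and 0.144 for the other interior identifiers, and 41 of the 114 interior members (36.0%) lay above the 90th percentile of the latter, 0.358. The 62 edge members had a higher median wt SD, 0.574, beside 0.311 for other identifiers at the edge. Over all 200 members the median was 0.332. For 112 of 114 interior members the SD over lbf1 plants exceeded that over wt plants, a direction that the choice fixes. The larger wt spread of interior members rested on wt plant 3: without it the median SD was 0.0588 for interior members and 0.0539 for the other interior identifiers, while without wt plant 1 it was 0.269 and 0.146, and without wt plant 2 0.283 and 0.152. Wt plants 1 and 2 shared slide 1, and wt plant 3 was alone on slide 4. Plant and slide therefore cannot be told apart for wt plant 3. Its 2 arrays, of the same RNA, differed by a median of 0.315 over interior members and 0.214 over the other interior identifiers. Its first array had the lowest upper quartile of net signal of all arrays, 317 units. The part of slide and array in the wt spread was not tested. With 3 plants the wt SD of a single member is imprecise.

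**Figure D2:**
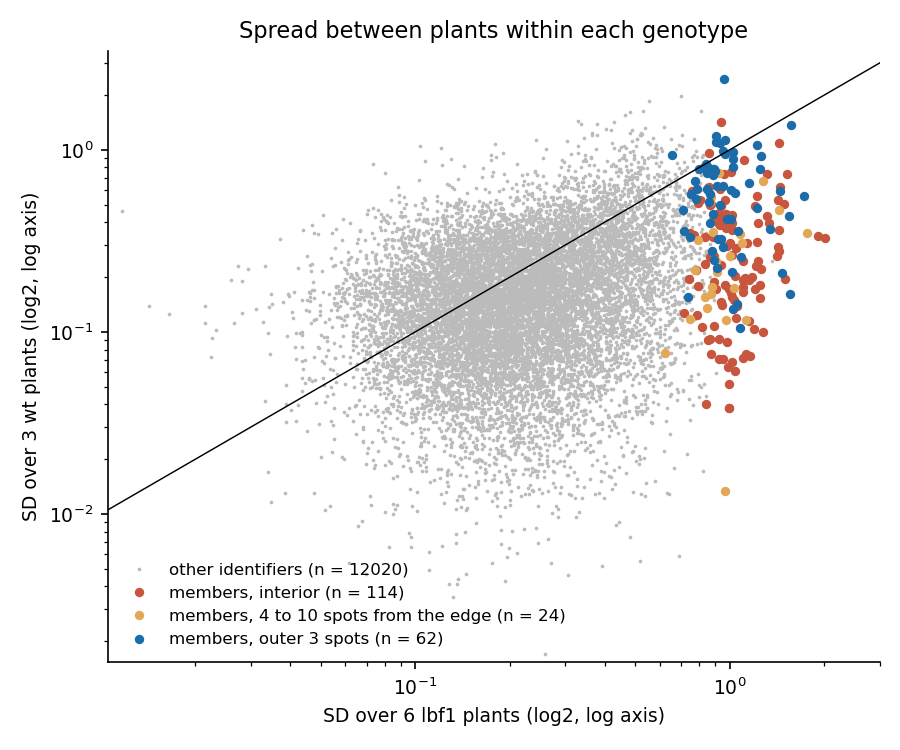
SD over the 3 wt plants against SD over the 6 lbf1 plants for each of the 12220 identifiers, both in log2 units on log axes, with a line of equal spread. Members stand at the right because they were chosen on the horizontal axis; edge members (blue, n = 62) sit higher than interior members (red, n = 114), with medians of 0.574 and 0.259.

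Repeat arrays of the same RNA give the error between arrays of a slide. Each repeat pair shared a slide, so error between slides is not part of these differences. The difference between the 2 arrays of lbf1 plant 1 had a median of 0.0661 over interior members, against their range of 2.54 between plants, and 107 of 114 differed by less than 0.5. At the edge the median was 0.189, and 5 of the 7 members whose arrays differed by more than 1 lay there. Both arrays put lbf1 plant 1 on the same side of the mean of the other 5 lbf1 plants for 106 of 114 interior members and for 51 of 62 edge members. Among the other identifiers this held for 9081 of 10366 in the interior and 245 of 351 at the edge. The choice of wide lbf1 spread favours such same-side readings. The 2 arrays of wt plant 3 differed more than those of lbf1 plant 1. Their median difference was 0.315 over interior members and 0.674 over edge members. At the edge the second array read 0.616 higher than the first (median), in the direction of the spike-in spots.

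The members fell into 4 pattern groups by correlation of their profiles over the 6 lbf1 plants, of 112, 61, 15 and 12 members. All 200 members fell into the same groups with the authors' values. The groups were made from these values, so their shapes are descriptions. Single members fitted them unevenly. The correlation of a member with the median profile of its group had a median of 0.83 in group 1 and 0.83 in group 2. The lowest was 0.051 in group 1 and 0.16 in group 2. Of group 1, 57 of 112 members lay in the outer 3 spots, 46 of them in the top 3 rows, and 44 were interior. Of group 2, 51 of 61 were interior and 4 were at the edge. Groups 3 and 4 had 9 and 10 interior members.

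**Figure D3:**
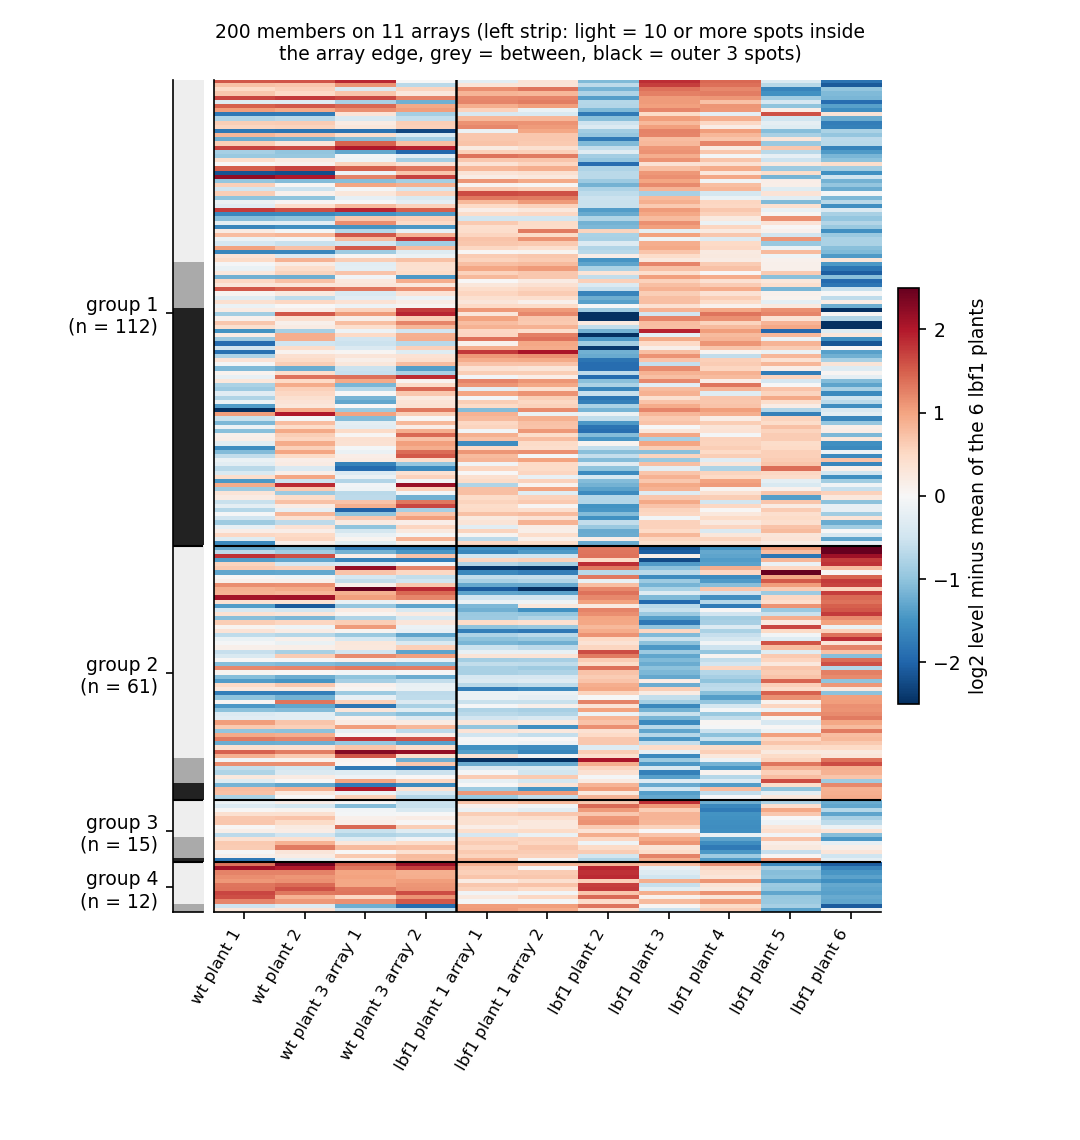
Log2 level of each of the 200 members on the 11 arrays minus its mean over the 6 lbf1 plants (colours capped at 2.5 in either direction), by pattern group. The strip at the left gives distance from the array edge. Group 1 is mostly low in lbf1 plants 2 and 6 in its interior (light) as well as its edge (black) members. Group 2 is mostly the reverse.

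Group 1 held transcripts of which most were low in lbf1 plants 6 and 2. In its 44 interior members the median level relative to the lbf1 mean was -1.04 in plant 6, -0.79 in plant 2 and -0.21 in plant 5, and 0.65, 1.0 and 0.56 in plants 1, 3 and 4. Plant 6 was the lowest of the 6 for 23 of these members, plant 2 for 13 and plant 5 for 7. Plant 3 was the highest for 23 and plant 1 for 13. The 3 wt plants stood at 0.27, 0.08 and 0.35, and these medians lay closer together than those of the lbf1 plants.

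The 57 edge members of group 1 differed from the interior ones in lbf1 plant 5 and in wt plant 1. Their medians were -1.18 in lbf1 plant 2, -0.68 in plant 6 and 0.52 in plant 5, where interior members stood at -0.21. In wt plant 1 the edge members stood at -0.31, and on the 2 arrays of wt plant 3, which carried the same RNA, at -0.11 and 0.60. The arrays on which they read low are those on which the spike-in spots of the top rows read lowest, in a different order. Edge members were lowest in lbf1 plant 2, and the spike-in spots were lowest in lbf1 plant 6. The part of the array edge in these values was not tested. The order of plants in group 1 is taken here from the interior members.

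Group 2 mirrored group 1 in its medians. Its 51 interior members had medians of 1.14 in lbf1 plant 6, 0.82 in plant 2 and 0.53 in plant 5, and of -0.70, -1.03 and -0.63 in plants 1, 3 and 4. Plant 6 was the highest for 31 of them and plant 3 the lowest for 25. The wt plants stood at 0.04, 0.04 and -0.05, between the high and the low lbf1 plants. Over the 6 lbf1 plants the median profiles of groups 1 and 2 correlated at -0.91, a value that grouping by correlation favours. These profiles were taken over all members, so that of group 1 included its edge members. By the interior medians given above, the 2 sets are largely the same ordering of plants read in opposite directions.

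Group 3 was marked by lbf1 plant 4. The median over its 9 interior members was -1.53 in that plant and -0.84 in plant 6, and lay between 0.29 and 0.91 in plants 1, 2, 3 and 5. Plant 4 was the lowest for 7 of the 9. The wt plants stood at 0.04, 0.18 and -0.22.

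Group 4 differed from the rest in that most of the lbf1 plants lay below wt in its interior members. Its 10 interior members had medians of 1.34, 1.28 and 1.13 in the 3 wt plants relative to the lbf1 mean. Among lbf1 plants, plant 2 stood at 1.56, above wt, plants 1 and 4 at 0.46 each, plant 3 at -0.05, plant 5 at -0.99 and plant 6 at -1.35. Plant 6 was the lowest for all 10, and plants 5 and 6 were below the lbf1 mean for each of them. The median difference between lbf1 and wt was -1.24 over these 10 and -0.21 over all interior members. Over the 2 group 4 members that lay 4 to 10 spots from the edge it was 0.39, in the other direction.

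**Figure D4:**
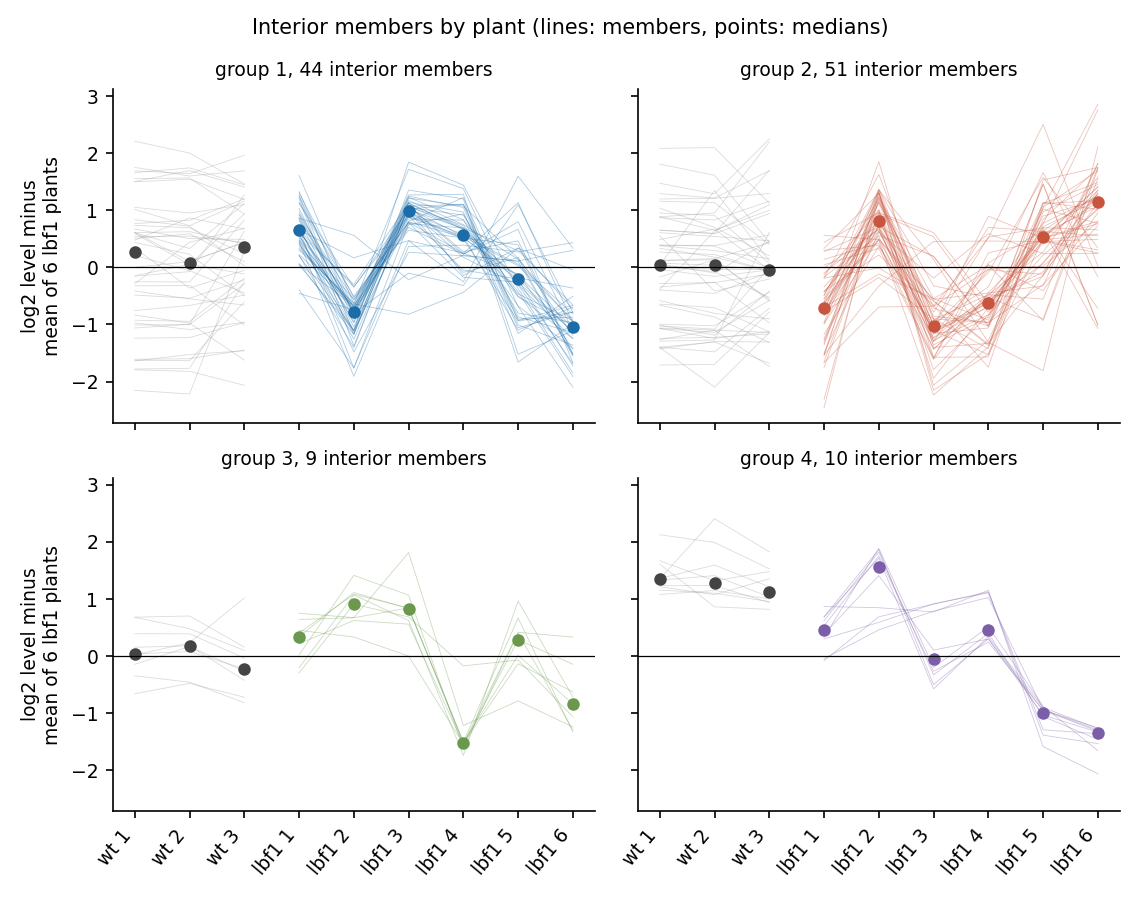
Log2 level of each interior member (lines) minus its mean over the 6 lbf1 plants, for the 3 wt and 6 lbf1 plants, in the 4 pattern groups of 44, 51, 9 and 10 interior members; points are medians. Wt medians lie near 0 in groups 1 to 3 and above 1 in group 4.

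Group 4 included a run of 4 members whose identifier numbers fall within 9 consecutive numbers, found by looking at the values. Their probes lay between 7.62 and 156 spots apart on the array, and all were interior. Their median level was 11.6, 11.7 and 11.4 in the 3 wt plants. In lbf1 plants 1 to 6 it was 10.9, 12.1, 9.92, 10.6, 9.31 and 8.98, so that plant 2 was above all wt plants and plants 5 and 6 were lowest, an 8.79-fold span. In each of the 4, lbf1 plants 5 and 6 were at least 1.94 log2 units below the lowest wt plant. The lowest correlation between any pair of the 4 was 0.989 over the 6 lbf1 plants. The 2 identifiers numbered just before the run, not members, correlated with its median at 0.96 and 0.99. Of the 5 numbered inside it, 1 was above background on only 1 array. The other 4 correlated with the median at 0.99, -0.25, -0.59 and -0.72, and the first of these had an lbf1 mean of 6.89 and was above background on 10 arrays. Probe sequences were not used here, so whether these probes can bind each other's transcripts was not tested, and the files do not state how identifier numbers relate to position in the genome.

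Neighbouring numbers were also counted over all members. These counts include members of the run of 4 above, so they are not separate from it. Of the 125 identifiers that stand next to a member by number and passed the other steps of the choice, 11 (8.8%) were members, against 1.64% of all that passed. Among the members, 6 pairs had consecutive numbers, and in 5 of them both probes were interior, between 7.62 and 154 spots apart. The correlation over 6 lbf1 plants was above 0.9 in each of those 5 pairs, and both members shared a pattern group. In the pair with a probe at the edge it was 0.31.

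The most variable members with an lbf1 mean above wt were Lus10012615 and Lus10010111, both in group 2. Lus10012615 had log2 levels of 8.86, 9.02 and 8.39 in the 3 wt plants. In lbf1 plants 1 to 6 it had 8.58, 11.43, 7.97, 8.60, 11.17 and 12.98. Plants 2, 5 and 6 were above every wt plant by more than 2 units, plants 1 and 4 lay within the wt range, and plant 3 was below it. The span was 32.3-fold, and the 2 arrays of lbf1 plant 1 read 8.60 and 8.56. Its mean was 10.12 ± 2.02 (SD, n = 6) in lbf1 and 8.75 ± 0.33 (SD, n = 3) in wt.

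Lus10010111 followed it closely. Its levels were 9.28, 9.07 and 8.62 in wt and 8.42, 11.28, 7.88, 8.66, 10.70 and 12.70 in lbf1 plants 1 to 6, a 28.4-fold span. As for Lus10012615, lbf1 plants 2, 5 and 6 stood above all wt plants and plant 3 was lowest. The 2 correlated at 0.997 over the 6 lbf1 plants, a value that grouping by correlation favours. Their levels differed by at most 0.47 log2 units in any plant. Their probes lay 110 spots apart and 45 and 32 spots in from the nearest edge. Whether these probes can bind each other's transcripts was not tested.

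The most variable members with an lbf1 mean below wt were Lus10004927 and Lus10018940, both in group 1 and both at the top edge, in rows 2 and 1, 7.07 spots apart. Lus10004927 had levels of 10.12, 10.10 and 11.08 in wt and of 10.99, 9.03, 10.79, 10.88, 11.06 and 6.76 in lbf1 plants 1 to 6. Only lbf1 plants 6 and 2 were below all wt plants. Its SD over lbf1 plants, 1.73, was 0.85 without plant 6, and its mean difference from wt, -0.52, turned to 0.12. The 2 arrays of wt plant 3 read 10.49 and 11.67.

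Lus10018940 had levels of 9.11, 11.53 and 11.46 in wt and of 10.73, 7.11, 9.51, 11.31, 11.19 and 10.02 in lbf1 plants 1 to 6. Here only lbf1 plant 2 was below all wt plants, and wt plant 1 was low as well. Its wt SD was 1.38, its SD over lbf1 plants 1.56, and the latter was 0.77 without plant 2. Its mean difference from wt, -0.72, was -0.15 without that plant. In both, the lowest lbf1 plant was plant 6 or 2, on whose arrays the spike-in spots of the top rows also read lowest among lbf1 plants. The pair correlated at 0.40 over the 6 lbf1 plants, in contrast to the interior pair.

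**Figure D5:**
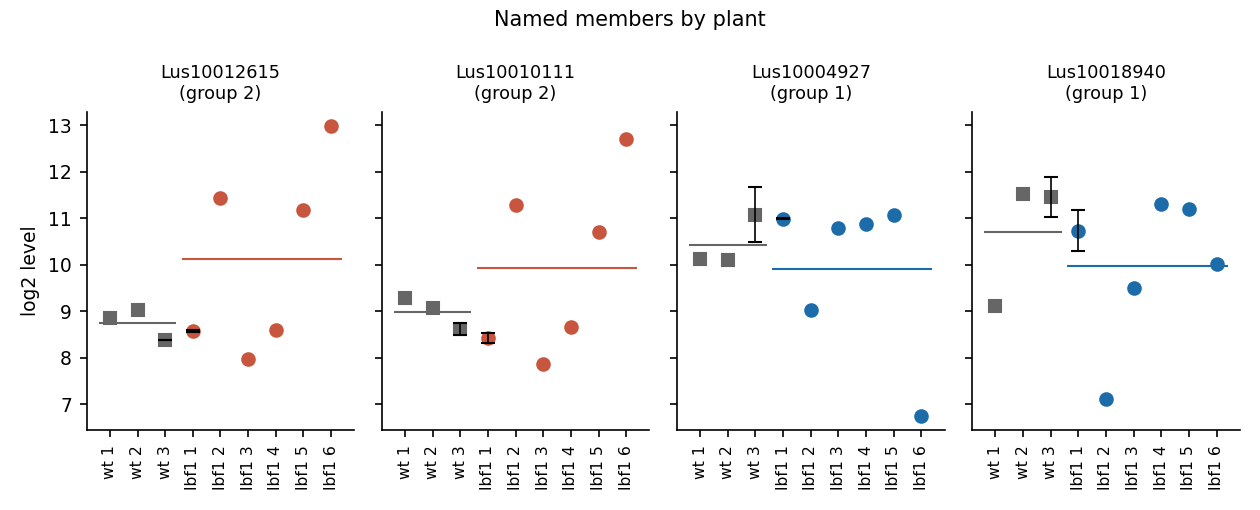
Log2 level of the 4 named members in each wt plant (squares) and lbf1 plant (circles), with group means as horizontal lines and the 2 repeat arrays of wt plant 3 and lbf1 plant 1 as black bars. The 2 interior members of group 2 (left) share a profile with lbf1 plant 6 highest; the 2 edge members of group 1 (right) are each low in lbf1 plant 6 or 2.

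No single plant accounted for all interior members. The plant farthest from the median of the 6 was plant 6 for 39 of the 114 (34.2%), plants 2 and 3 for 20 each, plant 4 for 13, plant 5 for 12 and plant 1 for 10. Over all 200 members plant 6 was farthest for 65 (32.5%) and plant 2 for 52 (26%). Among the other identifiers the corresponding shares were 25.9% and 17.6%, so plant 6 stood apart often there too. Plant 1 was farthest for 23.1% of the other identifiers and for 6.5% of the members. The first principal component held 61.0% of the variance of interior members over the lbf1 plants and 43.2% of that of the other interior identifiers. The choice of wide lbf1 spread favours a larger share in the members, so nothing is read from this difference. By the upper quartile of net signal, plants 2 and 6 were lowest of the lbf1 plants, with 650 and 746 units against 765 to 920 in the other 4. By probes above background, plant 2 was again lowest, with 27046. Plant 6 had 27780, more than plants 1 and 4 with 27492.5 (mean of 2 arrays) and 27262. The part of brightness in the patterns was not tested.

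The plants of slide 2 are 4 of the 6 whose spread chose the members, so their values are again a description. Over lbf1 plants 2 to 5, all on slide 2, interior members had a median range of 2.21 log2 units (4.63-fold), and 110 of 114 ranged over more than 2-fold. Of all 200 members 190 did so, and of the other identifiers 9.16%. The root mean square difference between lbf1 plants over interior members was 0.95 to 1.83 for the 6 pairs that shared a slide and 0.94 to 2.16 for the 9 pairs that did not. Plant 6 was alone on its slide, so that plant and slide cannot be told apart for it. In bulk tissue such as this, fewer cells of a type and less RNA per cell cannot be told apart either.

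Wt levels mostly lay inside the range of the lbf1 plants. The wt mean did so for 92 of the 114 interior members (80.7%) and for 44.4% of the other interior identifiers, and all 3 wt plants did for 74 (64.9%) and for 23.9%. The choice of wide lbf1 spread and close group means largely fixes these counts. In limma's fit over 28267 tested probes, 32.2% were called between the genotypes (Benjamini-Hochberg adjusted p under 0.05), 16.7% higher and 15.5% lower in lbf1. Of the 200 members 12 were called, 4 higher and 8 lower, and 11 of these 12 were interior. The split turned with the scaling, to 10 higher and 7 lower in the authors' values and 7 higher and 6 lower under median scaling. Over all probes tested in those fits it was 6108 higher and 2822 lower, and 5543 higher and 3979 lower. Without wt plant 1 or without wt plant 2, 1 member was called, and 3 without wt plant 3. Calls over all probes also fell in these fits, from 9114 to 6732, 6565 and 7078. Leaving out lbf1 plant 2 gave 21 member calls and 9009 over all probes, and lbf1 plant 3 gave 19 and 8295. The choice kept group means close and lbf1 spread wide, so nothing is read from the member counts against the background.

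Most members were bright enough to be read on every array. All 11 arrays read 165 of them above background, 33 more were above it on 10 arrays, and no member was saturated on any array. The choice required a value on all 11 arrays and an lbf1 mean of at least 9, which favours such readings. Outside the members, identifiers with the same ordering of plants were frequent. Among the next 200 identifiers by SD, 49 correlated above 0.8 with the median profile of group 1 and 32 with that of group 2, and among the 12020 other identifiers 7.05% and 12.7% did. These correlations are over the same 6 plants and arrays, which all identifiers share, and the profile of group 1 used here included its edge members.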

How the data were processed

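Per the file headers, the deposited scanner tables were written by GenePix Pro 6.0.1.22 at 532 nm and give, for every spot, its raw intensity, a local background and the percent of saturated pixels. The authors' deposited value table is on the log2 scale: it equals log2 of spot median minus local background plus a constant per array, and was used here to choose the members. All other values come from normexp background correction (offset 50, spot mean and local background median) and quantile normalization in limma 3.58.1 (R 4.3.3), with the repeat arrays of a plant averaged. Genotypes were compared with lmFit and eBayes on probes above background (net signal over 2.6 SDs of the background) on all arrays of at least 3 plants, and the fit was tested on simulated data. Groups came from average linkage on 1 minus Pearson correlation, in Python 3.11.15. The named members are the 2 with the largest SD among members with an lbf1 mean above wt and the 2 among those below. The members, groups and lists were chosen with earlier results of these data known, and the split by array position was chosen after seeing the data. Marker and pathway lists could not be matched to identifiers and were not used. Arrays give no counts, so the number of arrays limits the precision. Alternatives were background subtraction with the 75th percentile, median scaling, the authors' values, single arrays of repeated plants, no filter on dim probes, slide as a random block, a replicate block, and each plant left out.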

Additional observations from a re-analysis of the deposited data

How the results depend on the processing

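Over the alternatives run, the median SD over lbf1 plants of the members lay between 0.918 and 1.02 and the median repeat-array difference of lbf1 plant 1 between 0.0661 and 0.0940. The number of members called between genotypes, 12, became 7 without the filter on dim probes and 7 with slide as a random block. It ranged from 1 to 21 when a plant was left out. Calls over all tested probes, 9114 of 28267, were 8793 of 43455 without that filter and 8559 of 28267 with the slide block. They ranged from 6565 to 9114 when a plant was left out. With a replicate block 12 members were called, 8 higher and 4 lower, and calls over all probes fell from 9114 to 4386. Plants with the same number deviated together at correlations of 0.059, -0.093 and 0.083. Pairing by number was thus not seen in the levels. With 3 wt plants and plants on different slides, whether the numbers pair the plants could not be decided. The median wt SD, 0.332, ranged from 0.123 to 0.330 with a plant left out, the lowest without wt plant 3 and 0.268 without wt plant 1. In alternatives chosen after seeing the data it was 0.252 for members outside the outer 3 spots and 0.259 for interior members. The largest share set apart by 1 lbf1 plant, 32.5%, was 50.5% (plant 2) within slide 2. With a plant left out it ranged from 28.0% to 56.0%, with 28.5% (plant 3) without plant 1, 56.0% (plant 6) without plant 2 and 51.5% (plant 2) without plant 6. Choosing the members again without 1 lbf1 plant shared between 140 and 166 of 200, and from quantile-normalized values 166. The cause of these shifts was not tested. Dim probes are limited by the offset of 50, which understates their differences.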

Other observations

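Runs of members with nearby identifier numbers were counted after the pairs had been seen. With a gap of at most 10 between successive numbers, 35 of the 200 members fell into 16 runs. In 8 runs every member was interior, and in 6 of these all members shared a pattern group. No share for the other identifiers stands beside these counts, so nothing is read from them. The longest run was the 4 members of group 4 described above.

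The 24 members in rows and columns 4 to 10 from the edge had a median SD of 0.907 over lbf1 plants and 0.232 over wt plants, and the 28 spike-in spots in that band had medians between -0.45 and -0.15 relative to interior spots over the 11 arrays.

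A plant set apart from the other 5 by a wide gap was found for 18 of 200 members (9%) and for 8.76% of the other identifiers. The difference was not tested.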
